A study of Mus musculus with 12 samples.

Results

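The loss of thyroid hormone was followed in livers whose corepressor NCoR cannot bind its receptors: 3 hypothyroid NCoR mutants (replicates 5, 6 and 7) were compared with 3 euthyroid NCoR mutants (replicates 2, 3 and 4), 6 of the 12 arrays of the series. The arrays were chosen by the group named in their titles, Mutant hypothyroid or Mutant euthyroid, and no measured value entered the choice. Both groups carry the L-NCoR∆ID genotype, so the altered corepressor is common to them, and the labels separate them by thyroid state. The other 6 arrays, 3 of euthyroid controls (replicates 13, 14 and 15) and 3 of hypothyroid controls (replicates 17, 18 and 20), served to set the response of the mutants beside that of livers with intact NCoR. The labels do not give the age, sex or strain of the mice, what made them hypothyroid, the driver of the liver deletion, or whether each array came from its own mouse. P-values therefore measure the spread between arrays, which may be in part technical. RNA was total liver RNA, hybridised to the murine Gene Level 1.0 ST GeneChip of Affymetrix, and the values are log2 signals after robust multi-array averaging (RMA).

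Thyroid hormone acts through the nuclear receptors TRα and TRβ, which sit on DNA as partners of RXR. Without hormone, these receptors hold the corepressors NCoR and SMRT, which bring a histone deacetylase complex and keep genes that the hormone induces at a low level. Hormone releases the corepressor and lets coactivators bind. The L-NCoR∆ID allele yields an NCoR protein that lacks the domains with which it contacts such receptors. The liver answers thyroid hormone with changes in deiodination, lipid synthesis, bile acid handling and drug metabolism.

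The arrays resembled each other, with Pearson correlations between 0.958 and 0.993 over all pairs of the 12. Array medians lay between 4.16 and 4.32 on the log2 scale. The spread of an array's log2 values (its SD over clusters) was 2.26 to 2.31 in euthyroid mutants and 2.32 to 2.35 in hypothyroid mutants, so the groups did not overlap in it, while controls had 2.22 to 2.28 and 2.29 to 2.30. The first principal component ended in replicate 14 of the euthyroid controls and replicate 7 of the hypothyroid mutants. The hepatocyte genes Alb (albumin, 13.43 and 13.48 on average in euthyroid and hypothyroid mutants) and Ttr (transthyretin, 12.77 and 13.18) stood high in both groups, and 0 of 7 hepatocyte markers were called. The altered gene itself, Ncor1, was not analysed here.

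Hypothyroid and euthyroid mutants differed in a wide set of liver genes. The deiodinase Dio1, the cytochrome P450 gene Cyp3a16, the sulfotransferase Sult5a1, the fatty acid elongase Elovl3, the anion carrier Slc22a7 and cyclin D1 (Ccnd1) fell. The thyroxine-binding globulin Serpina7, the glutathione transferase Gstm3, the quinone reductase Nqo1, lipoprotein lipase (Lpl) and the desaturase Scd2 rose. A transcript cluster, the array's unit for 1 gene or part of it, was called where the adjusted p from limma was under 0.05. Of 21789 clusters with exactly 1 gene symbol, 241 were called (1.11% of those tested), 142 higher (0.652%) and 99 lower (0.454%) in hypothyroid mutants. They stand for 234 genes, 137 higher and 97 lower. A fold of 2 or more was reached by 60 of the rises and 45 of the falls. All 241 had groups that did not overlap, which was also so for 25.7% of all clusters tested, and the median difference over all clusters was -0.02. The count rested on the arrays used. When 1 hypothyroid mutant was left out it was 158 (replicate 5), 151 (replicate 6) or 89 (replicate 7). When 1 euthyroid mutant was left out it was 121 (replicate 2), 188 (replicate 3) or 95 (replicate 4). Leaving out a control array, which alters only the shared estimate of spread, gave 366 (without control euthyroid replicate 13), 620 (without replicate 14) and 197 to 225 (without any 1 of the other 4). With the array SD as a covariate 36 were called, 31 of them among the 241. As the SD did not overlap between the groups, the SD and thyroid state cannot be told apart in these 6 arrays.

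**Figure D1:**
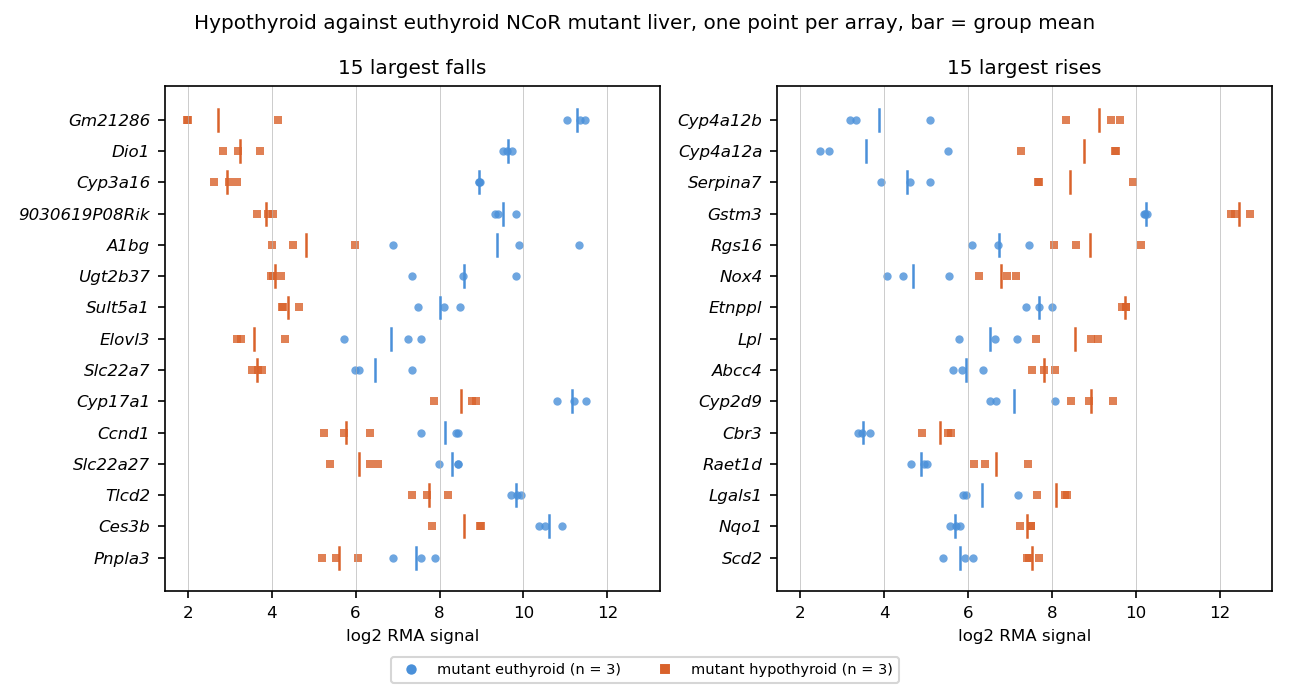
Log2 RMA signal (horizontal axis) of the 15 largest falls and 15 largest rises among called clusters whose groups did not overlap, one point per array, with bars at the means of 3 euthyroid (blue circles) and 3 hypothyroid (orange squares) mutants. Gm21286 (11.05 to 11.47 against 1.99 to 4.14) and Dio1 (9.51 to 9.74 against 2.83 to 3.72) have the widest gaps among the falls, and among the rises Cyp4a12b (8.34 to 9.63 against 3.20 to 5.09) and Serpina7 (7.66 to 9.93 against 3.93 to 5.09) do.

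Among the genes that handle thyroid hormone itself, 1 fell and 1 rose of 14 measured members of a list of receptors, deiodinases and carriers. Over all clusters, 0.454% were called lower and 0.652% higher. Dio1 encodes the type 1 deiodinase, which turns thyroxine into the active hormone in liver and is a textbook target of the liganded receptor. It measured 9.51, 9.62 and 9.74 in the euthyroid mutants and 3.20, 3.72 and 2.83 in the hypothyroid ones. All hypothyroid values lay below the array medians. The difference was -6.37 ± 0.21 SE on the log2 scale, 82.8-fold lower (adjusted p = 2.04e-10, limma), the smallest p of the comparison. Serpina7, which encodes the thyroxine-binding globulin of plasma, went the other way. It stood at 4.61, 5.09 and 3.93 in euthyroid and at 7.66, 7.70 and 9.93 in hypothyroid mutants. Replicate 7 was the highest of the hypothyroid group and no values overlapped. The rise was 3.89 ± 0.616, or 14.8-fold (adjusted p = 0.00595, limma), and with the array SD as a covariate it was 1.94 (adjusted p = 0.299). With trend and robust moderation its adjusted p was 0.0761 (limma). The receptors were not called, with differences of 0.21 ± 0.133 for Thra and 0.18 ± 0.204 for Thrb. Their values overlapped between the groups, as at 6.35, 6.28 and 6.45 against 6.22, 6.48 and 6.92 for Thrb. The median difference of the 14 genes was -0.06, against -0.02 for all clusters.

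The promoters of Dio1 and Serpina7, the genes of this list that changed, are shown as the window of 300 bases around an annotated start that RefSeq gives (GRCm38.p6, minus strand, printed 5′ to 3′ on the gene's strand). Serpina7 has 2 such starts, and the window with the most motif matches was printed. The genes were chosen after the values were seen, and capitals mark matches to the motifs searched on either strand. These were the half-site of nuclear receptors (letters AGGTCA), the core of the antioxidant response element (letters TGACNNNGC) and the box at which many promoters bind their basal factor (letters TATAAA), none of which overlaps another in the windows printed.
Dio1 (chr4:107307119-107307418): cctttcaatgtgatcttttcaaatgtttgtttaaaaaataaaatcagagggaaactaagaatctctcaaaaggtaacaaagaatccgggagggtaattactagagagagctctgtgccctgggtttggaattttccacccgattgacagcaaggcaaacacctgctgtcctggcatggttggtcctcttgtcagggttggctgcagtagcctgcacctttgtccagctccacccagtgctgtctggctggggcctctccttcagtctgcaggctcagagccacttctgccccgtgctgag
Serpina7 (chrX:139085187-139085486): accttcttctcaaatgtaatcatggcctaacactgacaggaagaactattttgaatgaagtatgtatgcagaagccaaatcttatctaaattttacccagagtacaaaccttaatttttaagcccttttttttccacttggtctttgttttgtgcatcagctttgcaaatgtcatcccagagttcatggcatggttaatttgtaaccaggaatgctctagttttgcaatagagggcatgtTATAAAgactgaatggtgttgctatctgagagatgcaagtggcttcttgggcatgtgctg
The Dio1 window held none of the 3 motifs, and the Serpina7 window held 1 basal box, TATAAA. The receptor half-site was found in 20% of the 105 promoters of genes called lower, in 12.5% of the 144 promoters of genes called higher and in 16.3% of all 32851 promoters of the table. For the antioxidant core the shares were 13.3%, 16.7% and 12.4%, and for the basal box they were 3.81%, 13.9% and 13.6%. Promoters were matched by symbol for 77 of the 97 genes called lower and 115 of the 137 called higher, some with more than 1 start. A match is a run of letters and was not tested as a site.

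Textbook targets that thyroid hormone induces were mostly not called. Of 13 measured genes on that list, Dio1 alone passed, against 1.11% of all clusters, and the list's median was -0.28. Without adjustment, 6 of the 13 had a limma p under 0.05, against 3448 of the 21789 clusters. Below 0 were 8 of the 13, against 11481 of the 21789 clusters. Thrsp, the lipogenic Spot 14 gene, measured 10.14, 10.63 and 10.23 in euthyroid and 9.91, 9.33 and 9.87 in hypothyroid mutants. These did not overlap, yet the difference of -0.63 ± 0.3 missed the threshold (adjusted p = 0.32, limma). Gpd2, the mitochondrial glycerol phosphate dehydrogenase, had 7.72, 7.67 and 7.56 against 7.31, 6.88 and 6.86. It too lay lower in every hypothyroid mutant, with a difference of -0.63 ± 0.208 (adjusted p = 0.18, limma). Malic enzyme, Me1, differed by 0.15 ± 0.222 and 0.18 ± 0.24 in its 2 clusters, and the transcription factor gene Klf9 by 0.03 ± 0.204. In both the hypothyroid and the euthyroid values lay within the same span. Of 3 measured genes known as repressed by the hormone, 0 were called. The stearoyl desaturase Scd1 measured 12.88, 12.90 and 12.82 against 13.09, 13.07 and 13.20 (adjusted p = 0.484, limma), and the bile acid enzyme Cyp8b1 differed by -0.66 ± 0.486.

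The largest fall was that of the predicted gene Gm21286, at 11.47, 11.05 and 11.34 in euthyroid and 2.01, 4.14 and 1.99 in hypothyroid mutants. Replicate 6 kept more signal than the other hypothyroid arrays but stayed far below the euthyroid ones. The difference was -8.57 ± 0.528 (adjusted p = 5.4e-07, limma). 9030619P08Rik, at 9.82, 9.32 and 9.40 against 3.91, 4.04 and 3.64, fell by 5.65 ± 0.238. Cyp3a16, a member of the drug-metabolising Cyp3a family, lay at 8.95, 8.96 and 8.94 in euthyroid mutants and at 3.16, 2.99 and 2.62 in hypothyroid ones, 65.1-fold lower (adjusted p = 0.00595, limma). Its SE was 0.956, because euthyroid controls spread from 2.57 to 8.81 in the shared estimate. The call was lost with trend and robust moderation (adjusted p = 0.0882, limma) and with the array SD as a covariate (-4.86, adjusted p = 0.273, limma). Ugt2b37, a glucuronosyltransferase gene, measured 8.57, 7.34 and 9.83 against 3.99, 4.22 and 4.04 and fell by 4.50 ± 0.486 (adjusted p = 0.000273, limma). These hypothyroid values lay close together while the euthyroid ones were wide. Families such as Cyp3a and Ugt2b hold near-identical copies that can share probes, so which copy changed is uncertain. The hypothyroid values of Gm21286, 9030619P08Rik and Cyp3a16 lay below the array medians and those of Ugt2b37 close to them, so these falls may be understated.

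The sulfotransferase gene Sult5a1 stood at 7.48, 8.50 and 8.09 in euthyroid and at 4.25, 4.66 and 4.28 in hypothyroid mutants. It was 12.3-fold lower (adjusted p = 0.000155, limma). Of 12 sulfotransferase genes it alone was called, against 1.11% of all clusters, and the list median was -0.63. Slc22a7, an organic anion transporter of the hepatocyte membrane, had 6.08, 7.34 and 6.0 against 3.52, 3.76 and 3.66. Its hypothyroid values all lay below the array medians. It was 7.09-fold lower (adjusted p = 9.24e-05, limma) with no overlap, and Slc22a27 of the same transporter family fell by 2.20 ± 0.342. Cyp17a1, the steroid 17-alpha hydroxylase, measured 11.21, 10.79 and 11.50 in euthyroid and 8.77, 7.87 and 8.87 in hypothyroid mutants. Its fall was 6.35-fold (adjusted p = 0.000908, limma). Ccnd1, whose cyclin drives cells from G1 into S phase, had 7.56, 8.43 and 8.38 against 5.72, 6.34 and 5.24, and the groups stood clear of each other. It was 5.13-fold lower (adjusted p = 0.000647, limma). A1bg, a plasma glycoprotein gene, was wide among euthyroid mutants (6.89, 9.89 and 11.32) and stood at 4.50, 5.97 and 4.02 in hypothyroid ones. It fell by 4.54 ± 0.915 (adjusted p = 0.0249, limma), and the carboxylesterase gene Ces3b fell by 2.01 ± 0.413 (adjusted p = 0.0271, limma). Tlcd2 fell by 2.08 ± 0.256. Of these 15 falls, 13 were called whichever 1 array was left out. Among the 13, Cyp3a16, Cyp17a1 (adjusted p = 0.101), Tlcd2 (0.0621) and Pnpla3 (0.137) were not called in limma with the array SD as a covariate. A1bg was lost without mutant euthyroid replicate 3 or 4 or mutant hypothyroid replicate 5 or 7 (largest adjusted p = 0.138). Ces3b was lost without the same arrays or mutant euthyroid replicate 2 (largest adjusted p = 0.134).

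The largest rises were those of 2 fatty acid hydroxylase genes, Cyp4a12b and Cyp4a12a, near-identical neighbours that can share probes. Cyp4a12b measured 3.34, 5.09 and 3.20 in euthyroid and 9.63, 9.41 and 8.34 in hypothyroid mutants. Every hypothyroid value was above every euthyroid one, and the rise was 5.25 ± 0.72 (adjusted p = 0.00179, limma). With the array SD as a covariate it was 3.83 and not called (adjusted p = 0.174, limma). Cyp4a12a had 2.70, 5.53 and 2.49 against 9.51, 9.53 and 7.25, a rise of 5.20 ± 0.994 (adjusted p = 0.0182, limma). In both, euthyroid replicate 3 stood above the other euthyroid mutants. Etnppl, a phospholyase of ethanolamine phosphate, measured 8.0, 7.69 and 7.39 against 9.68, 9.78 and 9.77 and was tight in the hypothyroid mutants alone. It rose 4.14-fold (adjusted p = 5.86e-05, limma). The export pump gene Abcc4 measured 6.35, 5.64 and 5.86 against 7.81, 8.07 and 7.53. It rose 3.61-fold (adjusted p = 0.000729, limma) with no overlap. Rgs16, a regulator of G protein signalling, rose by 2.17 ± 0.476, the NADPH oxidase gene Nox4 by 2.09 ± 0.388, and Cyp2d9 by 1.85 ± 0.417. The carbonyl reductase gene Cbr3 rose by 1.84 ± 0.4, Raet1d, which encodes a ligand of the NKG2D receptor, by 1.80 ± 0.409, and the galectin gene Lgals1 by 1.76 ± 0.318.

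Of the 15 rises, 7 were called whichever array was left out (Cyp4a12b, Serpina7, Gstm3, Etnppl, Abcc4, Nqo1 and Scd2). The other 8, which were Cyp4a12a, Rgs16, Nox4, Lpl, Cyp2d9, Cbr3, Raet1d and Lgals1, were all lost without mutant euthyroid replicate 2 and likewise without replicate 4. Without mutant hypothyroid replicate 6, 7 of them were lost, and 6 were lost without replicate 5 and 6 without replicate 7. Without mutant euthyroid replicate 3, 3 were lost (Cbr3, Raet1d and Rgs16). Control arrays mattered for Raet1d (without control euthyroid replicate 15 or control hypothyroid replicate 17 or 18), for Rgs16 (18 or 20), for Cyp2d9 (17 or 20) and for Cbr3 (17).

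Genes of glutathione conjugation and the NRF2 response formed the list with the most rises. NRF2 is the transcription factor that switches on antioxidant and detoxifying enzymes, and glutathione transferases couple glutathione to reactive compounds. Of 20 measured genes, 8 rose and 0 fell, against 1.11% of all clusters called. The list's median difference was 0.55, and 17 of the 20 were above 0. Gstm3, a mu class transferase, measured 10.28, 10.20 and 10.23 in euthyroid and 12.71, 12.37 and 12.28 in hypothyroid mutants. The groups were tight and far apart, 4.65-fold (adjusted p = 1.25e-06, limma), and a further Gstm3 cluster rose by 1.77 ± 0.141. Nqo1, a quinone reductase and classic NRF2 target, had 5.82, 5.56 and 5.72 against 7.51, 7.25 and 7.50. It was 3.29-fold higher (adjusted p = 3.53e-05, limma). Gstp1, the pi class transferase, stood at 10.41, 10.92 and 10.01 against 11.98, 12.13 and 11.89, a rise of 1.56 ± 0.254 (adjusted p = 0.00686, limma). Euthyroid mutants were wider than hypothyroid ones in it, without overlap. Gstm4 (1.18 ± 0.141), Gstm6 (1.11 ± 0.195), Gstm1 (1.08 ± 0.128), the microsomal epoxide hydrolase gene Ephx1 (1.11 ± 0.25) and Gsta4, whose enzyme clears lipid aldehydes (0.80 ± 0.157), rose as well. The Gstm genes lie in 1 cluster of close copies and may share probe signal. Of the 8 calls, 5 survived the loss of any 1 array. Gstm6 was lost without mutant euthyroid replicate 4 or mutant hypothyroid replicate 7. Ephx1 was lost without mutant euthyroid replicate 2 or 4, any 1 hypothyroid mutant or any 1 hypothyroid control, and Gsta4 without mutant euthyroid replicate 3 or 4 or any 1 hypothyroid mutant. With the array SD as a covariate 3 of the 8 were kept, and 5 without mutant hypothyroid replicate 7.

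**Figure D2:**
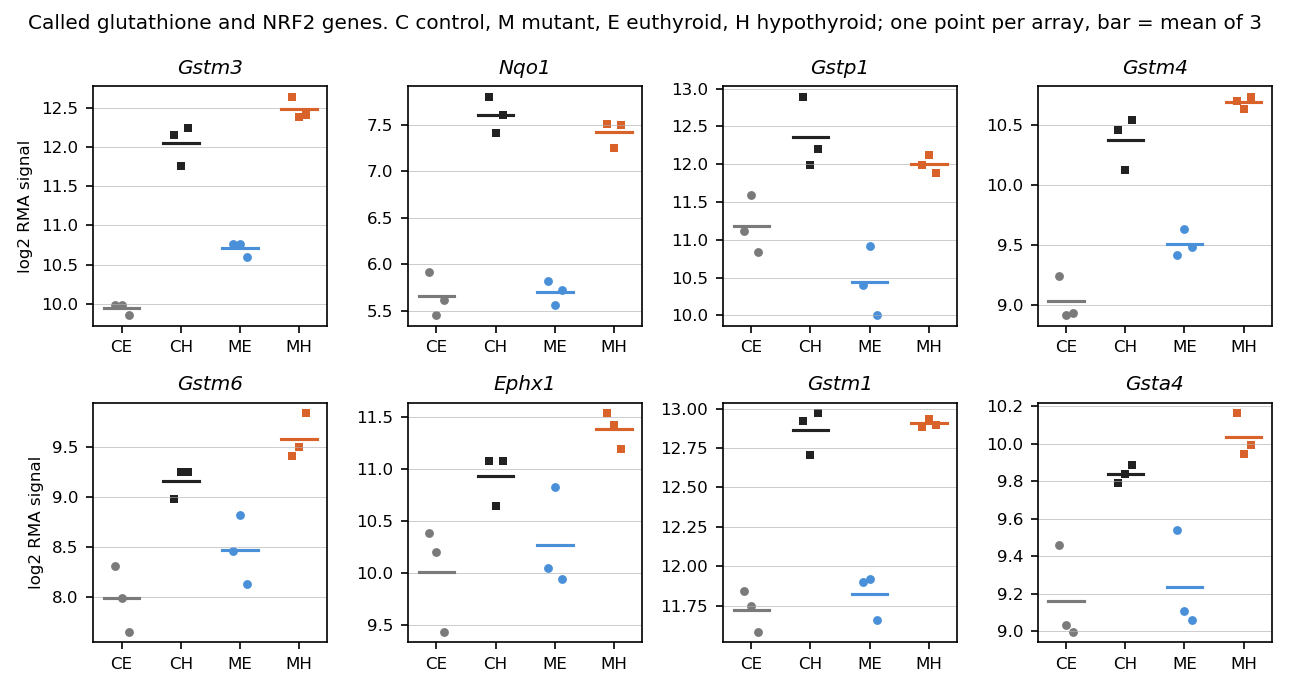
Log2 RMA signal of the 8 glutathione and NRF2 genes called in the mutants, one point per array, bars at the mean of 3, for control euthyroid (CE), control hypothyroid (CH), mutant euthyroid (ME) and mutant hypothyroid (MH) livers; each gene is shown by its cluster of highest mean level. Hypothyroid mutants lie above euthyroid mutants in all 8 panels without overlap, as for Nqo1 (7.25 to 7.51 against 5.56 to 5.82).

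The promoters of Gstm3, Gstm1 and Nqo1 are shown because these genes kept their call in every setting in which they were tested, with the same span, source, strand and motifs as above. Gstm1 has 2 annotated starts, and its window with the most motif matches was printed.
Gstm3 (chr3:107969125-107969424): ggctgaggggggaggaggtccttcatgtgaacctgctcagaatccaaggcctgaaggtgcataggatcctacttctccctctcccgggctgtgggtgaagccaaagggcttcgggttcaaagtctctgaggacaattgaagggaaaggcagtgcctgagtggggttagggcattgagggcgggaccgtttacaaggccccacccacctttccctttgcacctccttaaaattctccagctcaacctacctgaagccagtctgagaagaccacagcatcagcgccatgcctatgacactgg
Gstm1 (chr3:108017769-108018068): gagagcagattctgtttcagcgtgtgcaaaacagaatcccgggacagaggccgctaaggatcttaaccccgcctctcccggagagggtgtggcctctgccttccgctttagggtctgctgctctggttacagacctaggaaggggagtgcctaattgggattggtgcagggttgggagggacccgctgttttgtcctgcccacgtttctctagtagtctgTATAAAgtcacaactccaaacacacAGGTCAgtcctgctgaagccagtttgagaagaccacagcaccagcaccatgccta
Nqo1 (chr8:107403156-107403455): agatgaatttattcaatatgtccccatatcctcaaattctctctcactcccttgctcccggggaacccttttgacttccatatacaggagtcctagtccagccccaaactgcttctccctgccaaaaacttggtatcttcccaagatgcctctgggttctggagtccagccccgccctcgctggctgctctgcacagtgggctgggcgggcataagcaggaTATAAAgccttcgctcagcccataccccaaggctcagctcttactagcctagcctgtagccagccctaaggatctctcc
The Gstm1 window held 1 receptor half-site and 1 basal box, the Nqo1 window 1 basal box and the Gstm3 window none of the 3. The antioxidant core was absent from the 11 promoter windows of the 7 called list genes that matched, against 12.4% of all promoters.

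Lipid synthesis genes moved in both directions. Among 28 genes that make fatty acids and triglycerides, 2 rose and 3 fell, with a median of 0.09, against 0.652% of all clusters called higher and 0.454% lower. Elovl3, which elongates very long fatty acids, measured 5.72, 7.55 and 7.24 in euthyroid and 3.28, 4.31 and 3.16 in hypothyroid mutants. It was 9.52-fold lower (adjusted p = 0.00156, limma), and no values overlapped. Hypothyroid replicates 5 and 7 lay below the array medians in it. Pnpla3, a lipid droplet protein gene, had 6.89, 7.56 and 7.88 against 6.06, 5.53 and 5.21 and fell by 1.84 ± 0.248 (adjusted p = 0.00159, limma). Scd2, a desaturase that makes monounsaturated fatty acids, went up from 5.92, 6.13 and 5.40 to 7.47, 7.69 and 7.41. The rise was 3.26-fold (adjusted p = 0.000273, limma). Fads2, the delta-6 desaturase, fell by 0.67 ± 0.143 (adjusted p = 0.034, limma), and the acyltransferase gene Gpam, the first step of triglyceride assembly, rose by 0.66 ± 0.137 (adjusted p = 0.0279, limma). Fads2 was lost without control hypothyroid replicate 20 or without any 1 of the 6 mutant arrays (largest adjusted p = 0.142), and Gpam without mutant euthyroid replicate 2 or 4 or any 1 hypothyroid mutant. Of the 19 genes of apolipoproteins and lipoprotein handling, Lpl alone was called, against 1.11% of all clusters. Lipoprotein lipase, which frees fatty acids from circulating lipoproteins and is low in adult liver, measured 6.65, 7.16 and 5.80 against 7.62, 8.93 and 9.10, a rise of 2.02 ± 0.39 (adjusted p = 0.0198, limma). Hypothyroid replicate 5 lay closest to the euthyroid group.

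Cholesterol synthesis and fatty acid oxidation gave no call. Of 20 cholesterol genes the largest differences were those of Msmo1 (-0.46 ± 0.207) and Mvk (-0.46 ± 0.188), with a median of -0.13. Of 23 genes of fatty acid oxidation and PPARA targets they were those of Acot1 (0.62 ± 0.213) and Acadm (0.51 ± 0.143), with a median of 0.04. Acadm, the medium-chain acyl-CoA dehydrogenase gene, had 10.59, 10.86 and 10.56 against 11.28, 11.19 and 11.07, without overlap but with an adjusted p of 0.122 (limma). None of 39 oxidative phosphorylation genes was called, and their median was 0.03. Atp5g1 (-0.36 ± 0.15) and Ndufs1 (0.25 ± 0.203) differed most among those, and Ndufs1 turned sign with the array SD as a covariate.

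In glucose and glycogen metabolism, 2 of 18 genes rose and 0 fell, against 0.652% of all clusters called higher. The list's median was 0.49, and 17 of 18 genes were above 0, against 10308 of the 21789 clusters. Ugp2 makes UDP-glucose, the donor for glycogen, and Gbe1 is the glycogen branching enzyme. Ugp2 measured 8.09, 8.14 and 7.78 in euthyroid and 9.29, 9.15 and 9.16 in hypothyroid mutants. It rose 2.29-fold (adjusted p = 0.000675, limma), and the groups lay well apart. With the array SD as a covariate the rise of Ugp2 was 1.06 and not called (adjusted p = 0.0543, limma). Gbe1, at 8.94, 9.08 and 9.08 against 9.99, 9.84 and 10.25, rose by 0.99 ± 0.18 (adjusted p = 0.0129, limma) and was lost without mutant euthyroid replicate 2 or 4 or mutant hypothyroid replicate 7 (largest adjusted p = 0.0806). In bile acid synthesis and transport, 2 of 21 genes rose and 0 fell, against 0.652% of all clusters called higher, with a median of -0.03. The sterol carrier gene Scp2 rose by 1.17 ± 0.196 (adjusted p = 0.00803, limma) and was lost without mutant euthyroid replicate 4 (adjusted p = 0.0516). The efflux pump gene Abcc3 had 9.49, 9.40 and 9.15 against 10.20, 10.34 and 10.33 and rose 1.92-fold (adjusted p = 0.00208, limma). Its rise was 0.75 with the array SD as a covariate and was not called (adjusted p = 0.137, limma). Of 25 cytochrome P450 and other xenobiotic genes, Cyp3a16 fell and Cyp2c29 rose (0.79 ± 0.167, adjusted p = 0.0328, limma), with a median of 0.23. Over all clusters, 1.11% were called. The call of Cyp2c29 was lost without control hypothyroid replicate 17 or without any 1 mutant array other than euthyroid replicate 2.

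In the growth hormone and IGF axis, 3 of 14 measured genes fell and 0 rose, against 0.454% of all clusters called lower and 0.652% higher. The list's median was -0.51, and 10 of 14 were below 0, against 11481 of the 21789 clusters. Lifr, the receptor chain for leukaemia inhibitory factor, measured 10.31, 10.24 and 10.92 in euthyroid and 8.26, 8.95 and 8.86 in hypothyroid mutants. It was 3.49-fold lower (adjusted p = 0.00248, limma) and was kept whichever array was left out. Igfals, the subunit that holds IGF in its plasma complex, had 8.43, 8.63 and 8.37 against 7.58, 7.86 and 7.39 and fell by 0.87 ± 0.172 (adjusted p = 0.0231, limma). Stat5a, a signal carrier of the growth hormone receptor, had 7.01, 6.78 and 6.94 against 6.27, 6.43 and 5.96 and fell by 0.69 ± 0.14 (adjusted p = 0.0261, limma). Either call was lost on leaving out euthyroid replicate 2 or 4 or hypothyroid replicate 5 or 7 of the mutants, and that of Igfals also on leaving out euthyroid replicate 3 (largest adjusted p 0.137 and 0.149).

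Of the listed liver genes with a sex bias, many of them under growth hormone control, only the male-biased ones were split in direction. Of 10 male-biased genes, Cyp4a12a and Cyp2d9 rose and Elovl3 fell, against 0.652% of all clusters called higher and 0.454% lower. Only the call of Elovl3 was kept whichever array was left out. All 7 measured genes of the female-biased list were below 0, against 11481 of the 21789 clusters, with a median of -1.09. In this list 0 were called. It holds only 12 genes, so called genes outside it, among them some of the largest falls, may also have a sex bias. In the P450 gene Cyp2b9 a single hypothyroid mutant, replicate 6, stood at 3.27, while replicates 5 and 7 were at 10.72 and 11.38 and the euthyroid mutants at 11.56, 11.49 and 10.49. Its close relative Cyp2b13 showed the same array at 2.19 beside 8.62 and 8.66. Among the hypothyroid controls replicate 17 stood alike, at 2.56 beside 11.65 and 10.85 for Cyp2b9 and at 2.48 beside 10.07 and 8.94 for Cyp2b13. The sulfotransferase gene Sult3a1 had 11.30, 8.93 and 9.39 in euthyroid and 6.51, 9.62 and 6.60 in hypothyroid mutants, where replicate 6 was instead the highest. The peroxisomal transporter gene Abcd2, at 8.12, 8.14 and 8.20 against 7.49, 7.44 and 6.42, was the only member of the 7 whose groups did not overlap (adjusted p = 0.167, limma), against 11.1% of all clusters lower without overlap.

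**Figure D3:**
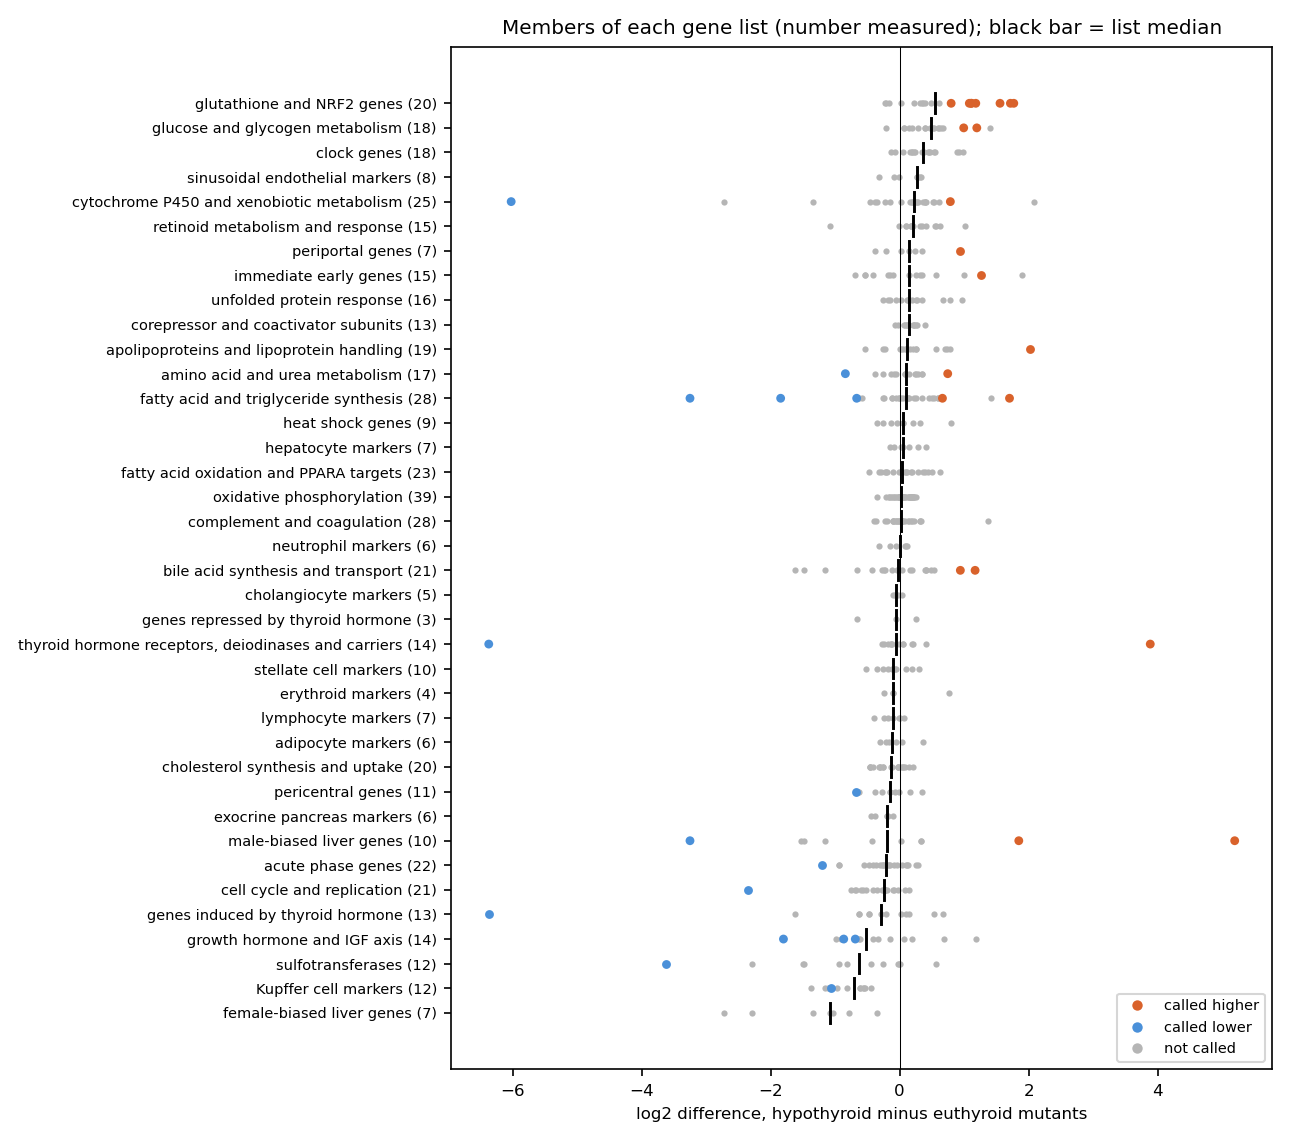
Log2 difference, hypothyroid minus euthyroid mutants (horizontal axis), of each measured member of the 38 gene lists, ordered by list median (black bar), with the number measured in brackets. Called members are orange (higher) or blue (lower) and others grey; glutathione and NRF2 genes have the highest median (0.55) and female-biased genes the lowest (-1.09).

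Of 12 markers of Kupffer cells, the resident macrophages of the liver, 1 was called lower in hypothyroid mutants, against 0.454% of all clusters. All 12 differences were below 0, with a median of -0.72, against 11481 of the 21789 clusters. Clec4f, their lectin marker, measured 8.02, 8.22 and 7.35 in euthyroid and 6.33, 7.32 and 6.76 in hypothyroid mutants. It fell by 1.06 ± 0.241 (adjusted p = 0.0489, limma), the 1 call of the list, and was lost with median centring and without mutant euthyroid replicate 2 or 3, mutant hypothyroid replicate 5 or 7, control euthyroid replicate 15 or any 1 hypothyroid control (largest adjusted p = 0.187). The lysozyme gene Lyz2 (-1.37, adjusted p = 0.125) and Cd5l (-1.16, adjusted p = 0.0703) did not pass in limma, although their groups did not overlap. Summed over the 12 markers on the linear scale, the signal was 1021 to 2383 in euthyroid and 560 to 1057 in hypothyroid mutants. Those ranges overlapped because of hypothyroid replicate 6. In controls the sums were 815 to 919 and 551 to 613. In bulk liver, fewer cells of a type and less RNA per cell cannot be told apart, and the part of these markers in other results was not tested. Among the stellate, endothelial, cholangiocyte, lymphocyte, neutrophil, erythroid, adipocyte and exocrine pancreas markers, 0 were called. Of these lists the endothelial one had the highest median (0.27) and the pancreas one the lowest (-0.19).

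Other processes gave at most 1 or 2 calls each, against 0.652% of all clusters called higher and 0.454% lower. In amino acid and urea metabolism, Prodh, which starts proline breakdown, fell by 0.84 ± 0.151 (adjusted p = 0.0125, limma), and Tdo2, which starts tryptophan breakdown, rose by 0.75 ± 0.131 (adjusted p = 0.011, limma). Tdo2 was tight, at 11.01, 11.04 and 10.75 against 11.66, 11.66 and 11.71. Prodh was lost on leaving out replicate 2 or 4 of the euthyroid or replicate 6 of the hypothyroid mutants, and Tdo2 without mutant euthyroid replicate 4 or mutant hypothyroid replicate 7. Of 21 cell cycle genes Ccnd1 alone was called, and 19 were below 0, against 11481 of the 21789 clusters, with a median of -0.25. Of 22 acute phase genes the serum amyloid gene Saa2 fell (-1.20 ± 0.227, adjusted p = 0.0172, limma), and of 15 immediate early genes Gadd45b, a growth arrest gene, rose (1.27 ± 0.255, adjusted p = 0.0248, limma). Hsd17b13, a lipid droplet enzyme, rose among 7 periportal genes (0.94 ± 0.169), and the transcription factor gene Tbx3 fell among 11 pericentral genes (-0.67 ± 0.144). Saa2 was lost on leaving out replicate 2 or 3 of the euthyroid or replicate 5 or 6 of the hypothyroid mutants, and Gadd45b without mutant euthyroid replicate 2 or mutant hypothyroid replicate 6 or 7. Hsd17b13 was lost on leaving out euthyroid replicate 4 or hypothyroid replicate 5 of the mutants, and Tbx3 without any 1 mutant array but hypothyroid replicate 5 and without control hypothyroid replicate 18.

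No member was called in the lists of clock genes, complement and coagulation, the unfolded protein response, heat shock, retinoid metabolism, or corepressor and coactivator subunits. Over the 20 lists with no call in limma, 35 of 250 entries had an unadjusted p under 0.05, against 3448 of the 21789 clusters. Of 18 clock genes, 16 were above 0, against 10308 of the 21789 clusters, with a median of 0.36. Dbp, a clock output gene, had 5.23, 5.51 and 4.79 against 6.05, 5.60 and 6.83, without overlap but with an SE of 0.581 (adjusted p = 0.414, limma), and the repressor gene Nr1d1 differed by 0.93 ± 0.437. Herpud1, of the unfolded protein response, came closest to the threshold, at 9.04, 10.19 and 9.36 against 10.36, 10.26 and 10.85 (adjusted p = 0.0624, limma), and Trib3 differed by 0.79 ± 0.232. The complement genes C8a (1.37 ± 0.39) and C4b (-0.40 ± 0.147), the retinoid-responsive Rarres1 (-1.08 ± 0.315) and Cyp26a1 (1.01 ± 0.617), and the heat shock genes Hspb1 (0.80 ± 0.325) and Dnaja1 (-0.34 ± 0.222) had the largest differences of their lists. Of the 13 coregulator genes, Med1, a Mediator subunit that binds liganded receptors, differed by 0.39 ± 0.155 and Sin3a by 0.27 ± 0.181. In that list 11 of 13 were above 0, against the same 10308 of 21789 clusters.

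Further called genes, picked after their values were seen, belong to no list above. Chpt1, which completes phosphatidylcholine synthesis, measured 7.61, 7.74 and 7.26 in euthyroid and 8.94, 9.09 and 9.0 in hypothyroid mutants. It rose 2.78-fold (adjusted p = 0.000174, limma), with the groups far apart. Nudt7, a peroxisomal hydrolase of coenzyme A, had 8.74, 9.31 and 8.84 against 7.05, 7.38 and 7.32 and fell by 1.71 ± 0.214 (adjusted p = 0.000908, limma). Cdh1, the E-cadherin gene, had 7.28, 7.16 and 7.64 against 6.07, 6.41 and 6.13, a fall of 1.15 ± 0.185 (adjusted p = 0.00641, limma). The calls of these 3, and of the mitochondrial carrier gene Slc25a30 (-1.81 ± 0.293) and the major urinary protein gene Mup5 (-1.62 ± 0.198, a family of near-identical copies), were kept in every setting in which they were tested. Aox1, the aldehyde oxidase gene, rose by 1.46 ± 0.195, the biliverdin reductase gene Blvrb by 1.14 ± 0.176, the microsomal transferase gene Mgst3 by 1.04 ± 0.167 and Ugdh, which makes UDP-glucuronate, by 0.99 ± 0.194. Aqp8, a water channel gene, rose by 1.21 ± 0.17. The kinase gene Akt1 fell by 0.96 ± 0.135, the estrogen receptor gene Esr1 by 0.90 ± 0.181 and the citrate carrier gene Slc13a5 by 1.08 ± 0.173, while Pparg, the receptor of adipogenesis, rose by 0.99 ± 0.197 and the glucocorticoid-induced Fkbp5 by 1.10 ± 0.198. Ugdh was lost without any 1 mutant array, Pparg without any 1 but hypothyroid replicate 7, and Esr1 without any 1 but euthyroid replicate 3. Fkbp5 was lost without mutant euthyroid replicate 2 or 3 or mutant hypothyroid replicate 6 or 7.

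The same change of thyroid state in controls, whose arrays enter the mutant comparison only through the estimate of spread, gave 242 calls (1.11%), 139 higher (0.638%) and 103 lower (0.473%). This count was 864 without control euthyroid replicate 13 (665 higher, 199 lower), and 134, 142 and 147 without control hypothyroid replicate 17, 18 and 20. The overlap below is for the count over all 12 arrays. Of the mutant calls, 127 were also called in controls, all in the same direction, which is 52.7% of the mutant list and 52.5% of the control list. Both comparisons draw on 1 shared estimate of spread per cluster. Over the 21789 clusters the differences in the 2 genotypes had a Pearson r of 0.703 and the same sign for 72% of clusters, given as a description across clusters that are not independent. Clusters picked by the control arrays as lower had a median of -1.11 there and -0.86 in the mutants (-0.48 when picked without control euthyroid replicate 13). Of those 103, 102 were below 0 in the mutants, against 11481 of the 21789 clusters. Without overlap were 89 (11.1% of all clusters), and 58 were called (0.454% of all clusters called lower). Measured for each hypothyroid mutant against the euthyroid mean, their median was -0.92, -0.73 and -0.92. Clusters picked as higher in controls had a median of 0.95 there and 0.73 in the mutants (0.45 when picked without control euthyroid replicate 13). In the mutants 139 of 139 were above 0, against 10308 of the 21789 clusters. Without overlap were 124 (14.6% of all clusters), and 69 were called (0.652% of all clusters called higher). The medians in the genotype that picked the clusters are a description, since size entered the choice. In the other direction, the 99 clusters called lower in mutants had medians of -0.96 in mutants and -0.95 in controls, and the 142 called higher had 0.94 and 0.77.

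Several of the largest changes in controls were of like size in the mutants. Slc22a7 fell by 2.93 in controls and by 2.83 in mutants, Sult5a1 by 3.75 and 3.63, and A1bg by 4.35 and 4.54. Serpina7 rose by 3.72 and 3.89 and Rgs16 by 2.69 and 2.17. The 95% intervals of the difference between genotypes were -0.72 to 0.92 for Slc22a7, -0.99 to 1.23 for Sult5a1 and -1.69 to 2.02 for Serpina7. They leave room for differences of about those sizes. In hypothyroid mutants Slc22a7 lay below the array medians and Sult5a1 close to them, so the sizes of these falls may be understated. Dio1 fell by 5.34 in controls, where euthyroid livers had 8.14, 8.91 and 8.67 and hypothyroid ones 3.21, 3.25 and 3.24. Hypothyroid values of both genotypes lay below the array medians, where levels cannot be ranked. Clusters called in mutants alone were mostly of the same sign in controls. For the 41 lower ones the medians were -0.72 in mutants and -0.42 in controls, with 38 below 0, and for the 73 higher ones they were 0.88 and 0.50, with 70 above 0. Genes that went against that sign in controls were few, such as Serpina12 (-1.35 in mutants, 0.17 in controls), named after its values were seen. Its mutant call was lost on leaving out replicate 3 or 4 of the euthyroid or replicate 5 or 7 of the hypothyroid mutants.

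**Figure D4:**
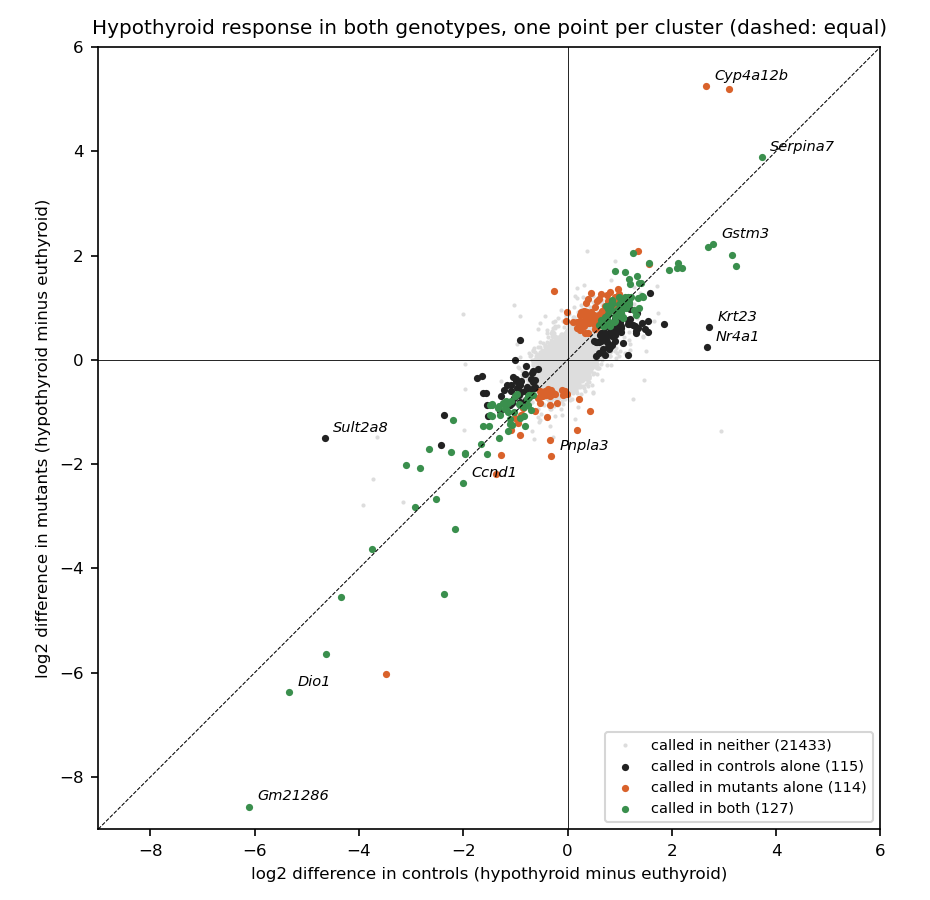
Log2 difference between hypothyroid and euthyroid livers in controls (horizontal axis) and in mutants (vertical axis), one point per cluster with 1 symbol, coloured by where it was called; the dashed line marks equal differences. The 127 clusters called in both (green) lie to the lower left and the upper right, and Krt23, Nr4a1 and Sult2a8, called in controls alone, lie far from the line.

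Whether the response itself differed between genotypes was tested as the mutant difference minus the control difference. In limma 0 clusters passed (0%), also with trend and robust moderation. An unadjusted p under 0.05 was found for 600 (2.75%), fewer than the share of 0.05 that would be looked for with no difference at all. The SE of this difference had a median of 0.221, so a 95% interval typically spanned 0.471 on each side. Leaving out 1 array gave a call in 3 cases, which were Krt23 without control euthyroid replicate 13 (adjusted p = 0.00415), Sult2a8 without control hypothyroid replicate 18 (adjusted p = 0.00217) and Nr4a1 without control hypothyroid replicate 20 (adjusted p = 0.00958, all limma). The 4 smallest p above 0 belonged to Sult2a8, Cyp3a11, Cox19 and Stk38l, and the 4 below 0 to Krt23, Lce1c, Nr4a1 and Kcnj16.

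Krt23, a keratin gene, had the smallest p (unadjusted 1.32e-05, adjusted p = 0.287, limma). It measured 3.74, 3.05 and 3.78 in euthyroid and 4.13, 4.08 and 4.22 in hypothyroid mutants, a difference of 0.62 ± 0.232, while controls went from 4.54, 3.68 and 3.60 to 6.44, 6.75 and 6.76. The hypothyroid controls stood above all other arrays. Sult2a8, a sulfotransferase gene with close copies, had 9.39, 9.69 and 9.57 against 7.46, 8.13 and 8.56 in mutants (-1.50 ± 0.407, not called) and 9.65, 8.83 and 9.12 against 3.83, 5.81 and 4.0 in controls. The difference between genotypes was 3.16 (95% interval 1.93 to 4.38, adjusted p = 0.705, limma). Nr4a1, an orphan nuclear receptor gene of the immediate early class, differed by 0.25 ± 0.372 in mutants and rose by 2.68 in controls, whose hypothyroid values were 6.90, 7.93 and 5.66. Cyp3a11, the main drug-metabolising Cyp3a gene, had 11.93, 12.16 and 11.68 against 12.44, 12.35 and 12.15 in mutants, while it fell by 0.92 in controls. Cox19, an assembly factor gene of cytochrome oxidase, rose in mutants by 0.75 ± 0.125 (adjusted p = 0.00802, limma; 0.0516 without mutant euthyroid replicate 4) and differed by -0.04 in controls. Stk38l, a kinase gene, differed by 0.61 and -0.24, Lce1c by -0.97 and 0.44, and the potassium channel gene Kcnj16 by -0.50 and 0.40. The fall of Lce1c in mutants was lost without any 1 array but control euthyroid replicates 13 and 14 and mutant hypothyroid replicate 6, and was -0.65 without mutant hypothyroid replicate 7. Gpd2 was called in controls (-1.62) and not in mutants (-0.63), and the interval of the difference, 0.36 to 1.62, went with an adjusted p of 1 in limma. Pnpla3, called in mutants and not in controls (-0.32), had an interval of -2.27 to -0.77, likewise with an adjusted p of 1.

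**Figure D5:**
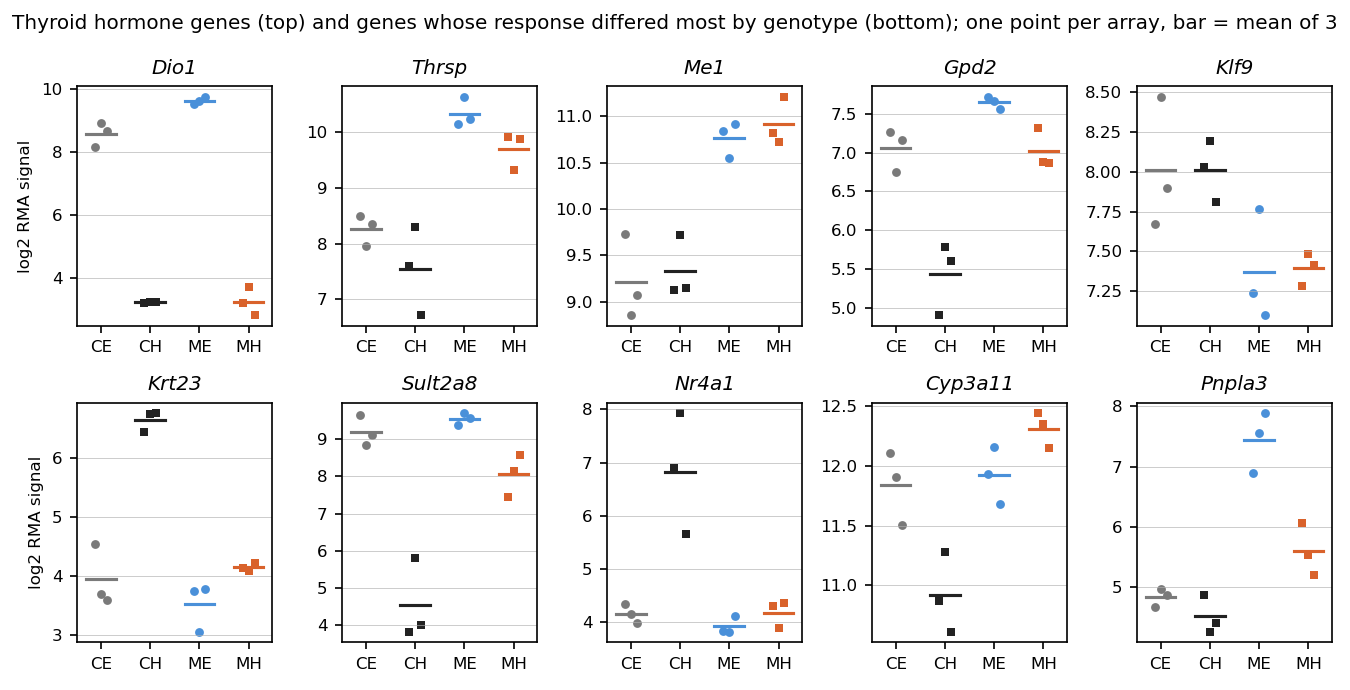
Log2 RMA signal by group, one point per array and a bar at the mean of 3, for thyroid hormone genes (top) and for genes with small p for a difference between genotypes (bottom); each vertical axis has its own range. Dio1 is low in the hypothyroid livers of both genotypes (means of 3.23 and 3.25, below the array medians), and Krt23 is high in hypothyroid controls alone.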

How the data were processed

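The deposited table holds log2 signals, which the authors made with RMA, per the submitters' processing notes; the sources used here do not give its version, its options or any array batch. Of 35557 transcript clusters on 12 arrays, the 21789 with exactly 1 symbol in the platform annotation were used, with no filter on level, and symbols were updated through Entrez identifiers (21698 matched, RefSeq, GRCm38.p6). Groups came from the sample titles. Means of the 4 groups were fitted to all 12 arrays with limma 3.58.1 (R 4.3.3, lmFit and eBayes), and p-values were two-sided with Benjamini-Hochberg adjustment over the 21789 clusters. The script was tested on simulated data. The number of arrays, 3 per group, limits the precision, and the table has no detection calls, so folds of dim genes may be understated.

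Lists and members were chosen with earlier results of these data known. Text rules named the 15 largest rises and falls with groups that did not overlap, up to 4 called members of each of 38 lists (all 8 for glutathione genes) or else the 2 largest differences, 7 thyroid hormone genes, the 4 smallest p each way for the difference between genotypes, and the largest control changes. A list gene with several clusters was taken by the cluster of highest mean. Lists are described by counts and medians beside all clusters, with no set test. Alternatives were other normalizations, cluster sets, variance models and samples, a covariate for array SD, and each array left out. Promoters and their motifs came from RefSeq windows.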

Additional observations from a re-analysis of the deposited data

How the results depend on the processing

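No paired analysis was possible because no replicate number occurs in more than 1 group. The mutant count of 241 was 217 to 256 with median centring, quantile normalization, clusters above the median level or trend and robust moderation, and 322 with the compared groups alone. No called cluster turned sign in any setting, 69 (34 higher, 35 lower) were kept without any 1 array, and 24 (9 higher, 15 lower) were kept in every setting in which they were tested. The median of all clusters was -0.03 after quantile normalization and 0.04 after median centring.

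With every cluster of the table the counts were 146 in mutants (66 higher) and 144 in controls (68 higher). With the array SD as a covariate they were 36 in mutants (10 higher, 26 lower) and 137 in controls (45 higher). The compared groups alone gave 135 in controls (69 higher, 66 lower), and quantile normalization gave 160 lower in controls. Leaving out 1 array gave 89 to 620 in mutants (44 to 420 higher, 43 to 200 lower), 134 to 864 in controls (66 to 665 higher, 59 to 199 lower) and 0 to 1 for the difference between genotypes (0 to 1 higher, 0 to 1 lower). The mutant median of clusters called lower in controls was -1.03 with the compared groups alone, -0.96 with the array SD and -1.0 to -0.48 without 1 array. For those called higher it was 0.89 with every cluster, 0.94 with the compared groups alone, 0.91 with the array SD and 0.45 to 0.92 without 1 array. The cause was not tested.

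Differences that turned sign belonged to genes that were not called. With the array SD they were Ndufs1 (-0.29), Krt19 (0.20), Thrb (-0.31), Cyp26a1 (-1.06), Fabp4 (-0.20), Plin1 (0.23), Ctrb1 (0.020), Sin3a (-0.25), Ngp (0.25), Cd3e (0.30), Me1 (-0.10) and Cyp8b1 (0.30). Without both outlying arrays the other Me1 cluster was -0.025 and Thrb -0.0059. Without 1 array that Me1 cluster ranged from -0.025 to 0.34, Thrb from -0.0059 to 0.34, Klf9 from -0.11 to 0.23, Cftr from -0.17 to 0.027 and Ngp from -0.31 to 0.085. Klf9 was -0.10 after quantile normalization.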

Other observations

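Clusters that carry no usable gene name also responded in hypothyroid mutants. Of 12147 clusters with no symbol, 2 were called higher and 14 lower in limma, and of 1621 with several symbols, 10 were called higher and 10 lower. No gene is named from them.

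A few further called genes, chosen after their values were seen, stood nearer to 0 in controls. The stem cell marker gene Prom1 measured 5.80, 4.72 and 5.57 in euthyroid and 3.90, 3.93 and 3.62 in hypothyroid mutants, a fall of 1.55 ± 0.252 (adjusted p = 0.00676, limma), and differed by -0.34 in controls. Reck, which encodes a membrane inhibitor of metalloproteinases, measured 5.17, 5.18 and 5.17 against 5.72, 5.95 and 6.58, a rise of 0.91 ± 0.18 (adjusted p = 0.0225, limma), and differed by -0.01 in controls. The call was lost without any 1 euthyroid mutant or without mutant hypothyroid replicate 7. Tedc2 rose by 1.32 ± 0.272 in mutants and differed by -0.26 in controls, and its call was lost without mutant euthyroid replicate 2 or 4 or mutant hypothyroid replicate 6 or 7. The difference between genotypes was not called for any of these 3.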
